A study of Homo sapiens with 18 samples.

Results

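The COPI vesicle coat, the golgins and the other tethers that catch Golgi vesicles were followed across 18 RNA sequencing samples of OVCAR5, an established human ovarian cancer cell line. The set is a list of genes by function, and its rule uses no difference between groups, although earlier results of these data were known when it was drawn up. It holds 9 genes of the COPI coat, 8 subunits of the COG complex, 10 golgins and coiled-coil tethers, 3 Golgi SNAREs, 3 p24 cargo receptors, 3 KDEL receptors and 3 exchange factors for ARF GTPases. All 39 were found among the 60483 genes listed, and all 39 had a mean above 1 TPM, so none was dropped. The cells were wild type and had been held for 24 h in medium with fatty-acid-free bovine serum albumin, which every group shared, under 6 conditions of 3 replicates each. These were DMSO alone, 1 µM CAY10566, 50 µM stearate+DMSO, 50 µM stearate+CAY10566, 50 µM oleate+DMSO and 50 µM oleate+CAY10566. SCD1 is a desaturase that turns stearate, which has no double bond, into the monounsaturated oleate. CAY10566 inhibits SCD1, and DMSO is the vehicle. All samples came from 1 cell line, and nothing in the labels says that replicates came from separate cultures, so a p-value measures only the spread between these samples, which may be technical.

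COPI-coated vesicles bud from the Golgi and carry proteins back to the endoplasmic reticulum (ER) and between Golgi cisternae. An exchange factor loads an ARF GTPase with GTP, the GTPase brings the preassembled coat to the membrane, and the coat gathers cargo such as p24 proteins and KDEL receptors, which retrieve escaped ER chaperones. Once uncoated, the vesicle is caught by golgins, which are long coiled-coil proteins that project from the cisternae, and by the COG complex, and it then fuses through SNAREs. A secretory cell depends on this cycle to keep ER-resident proteins in place and to keep glycosylation enzymes in the right cisterna.

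Levels are in TPM, which corrects for transcript length and has an equal sum in every sample. TPM keeps no depth, so no interval for counting error can be given, and a difference in TPM cannot tell less RNA per cell of a gene from fewer cells that express it. Differences are given on the log2(TPM + 1) scale, which understates the fold change of genes with low TPM. They come from a limma fit to the 13789 genes whose mean TPM reached 1, with the Benjamini-Hochberg false discovery rate (FDR) taken over all of them. A gene is said to have risen or fallen where its FDR was under 0.05, and it also passed the fold limit of 1.25 where this is stated. Control, stearate and oleate each denote 6 samples, with and without CAY10566 pooled.

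Stearate raised 10 of the 39 genes over control and lowered none. They were 5 coat genes (COPA, COPB1, COPB2, COPG1, ARCN1), the tethers USO1 and TRIP11, the p24 proteins TMED9 and TMED10, and the exchange factor GBF1. Of all genes tested, 13.5% rose and 5.97% fell with stearate, so the share of members that rose stood above that of all genes and none fell. The rises were small: the median difference over the 39 was 0.11, against 0.06 over all genes. Positive differences were 33 of 39, against 9118 of all 13789 genes. Only TRIP11 also passed the fold limit, which 5.35% of all genes did. Leaving out a single control library, CAY10566 replicate 3, took the count from 10 to 17, while 20.3% of all genes then rose. The 7 members gained were COG5, COG6, GOLGA3, GOLGA4, GOLGB1, GCC1 and ARFGEF2, so that which tethers passed with stearate turned on that library. COG5 and COG6 then joined TRIP11 past the fold limit, and the share of all genes past it in that fit was not counted.

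Oleate raised 14 of the 39 genes and lowered 1, where 23.0% of all genes rose and 2.70% fell. The 14 were COPA, COPB1 and ARCN1 of the coat, COG5 and COG7, the golgins GOLGA2, GOLGA3, GOLGA4, GOLGB1 and TRIP11, the SNARE GOSR2, TMED2 and TMED9, and the exchange factor ARFGEF2. KDELR1 fell. The median difference was 0.15, against 0.09 over all genes, and 5 members (COG5, GOLGA3, GOLGA4, TRIP11, ARFGEF2) passed the fold limit, as 6.90% of all genes did. Rescaling each sample by a median-of-ratios size factor, so that the median gene no longer differed, changed this split from 14 higher and 1 lower to 6 higher and 4 lower, where 9.07% of all genes were then higher and 9.12% lower. For stearate the split went from 10 and 0 to 7 and 1, where 7.92% and 10.2% of all genes were higher and lower. Under that rescaling the median member difference was 0.06 for stearate and 0.05 for oleate, against 0.01 and 0.00 over all genes. Without CAY10566 replicate 3 oleate raised 20 members, and 30.1% of all genes. The members past the fold limit went from 5 to 7 with GOLGB1 and GCC2, and the share of all genes past it in that fit was not counted. COPB2, USO1, GCC1, GCC2, GOSR1, TMED10 and GBF1 were gained and COG7 was lost. The stearate and oleate comparisons share their 6 control samples.

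**Figure D1:**
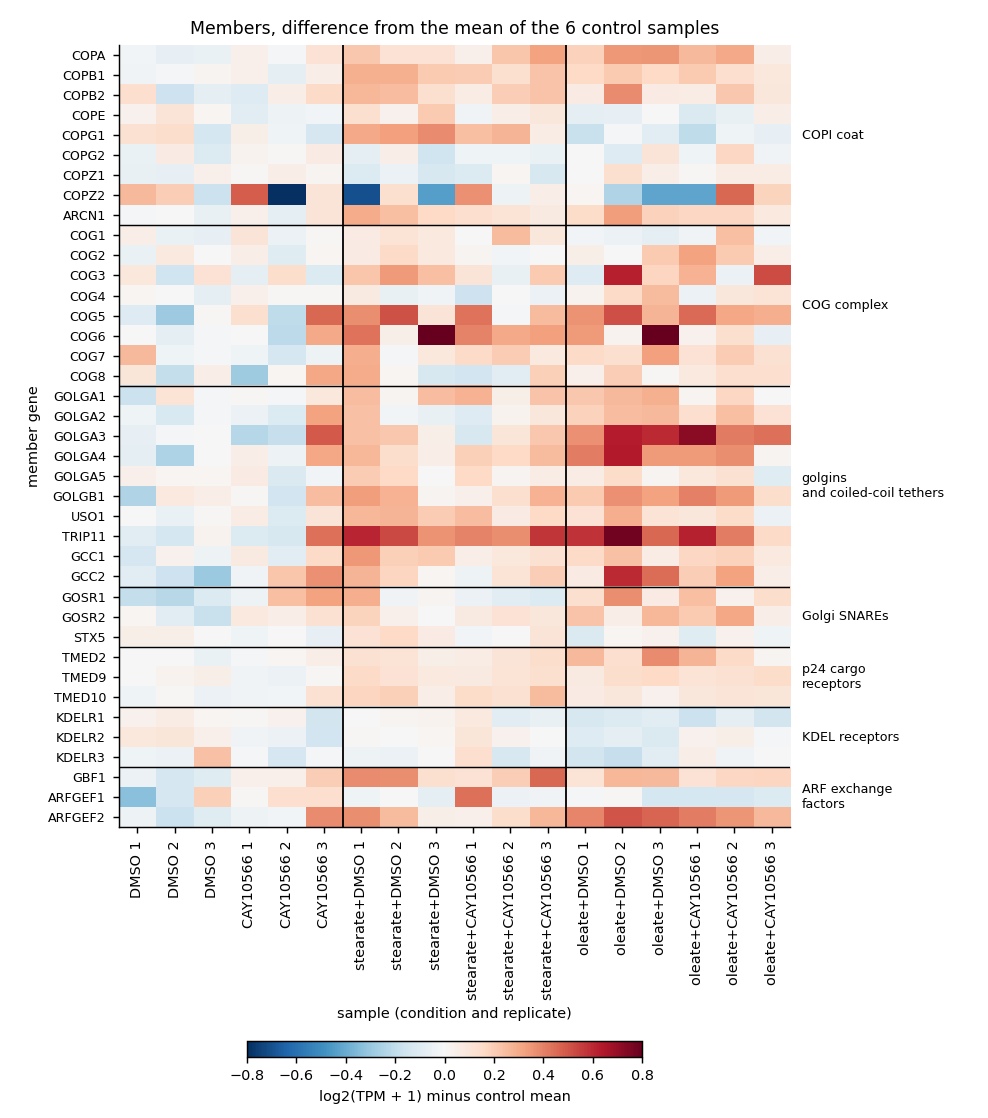
Each row is 1 of the 39 genes and each column 1 of the 18 samples, and colour gives log2(TPM + 1) minus the mean of the 6 control samples, with the scale ending at 0.8 in either direction. TRIP11 is red in all 12 fatty acid samples and also in CAY10566 replicate 3. GOLGA3 is red in the 6 oleate samples and in CAY10566 replicate 3, and the KDEL receptors are pale or blue with oleate.

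Directly compared, stearate and oleate differed at 6 of the 39 genes. COPG1, COPE and KDELR1 were higher with stearate, and COPZ1, GOLGA3 and COG4 were lower. Among all genes 6.85% were higher with stearate and 14.3% lower, and COPG1 and GOLGA3 were the 2 members past the fold limit, which 6.37% of all genes passed. After rescaling the split was 7 higher and 1 lower, where 10.4% and 11.5% of all genes were higher and lower.

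**Figure D2:**
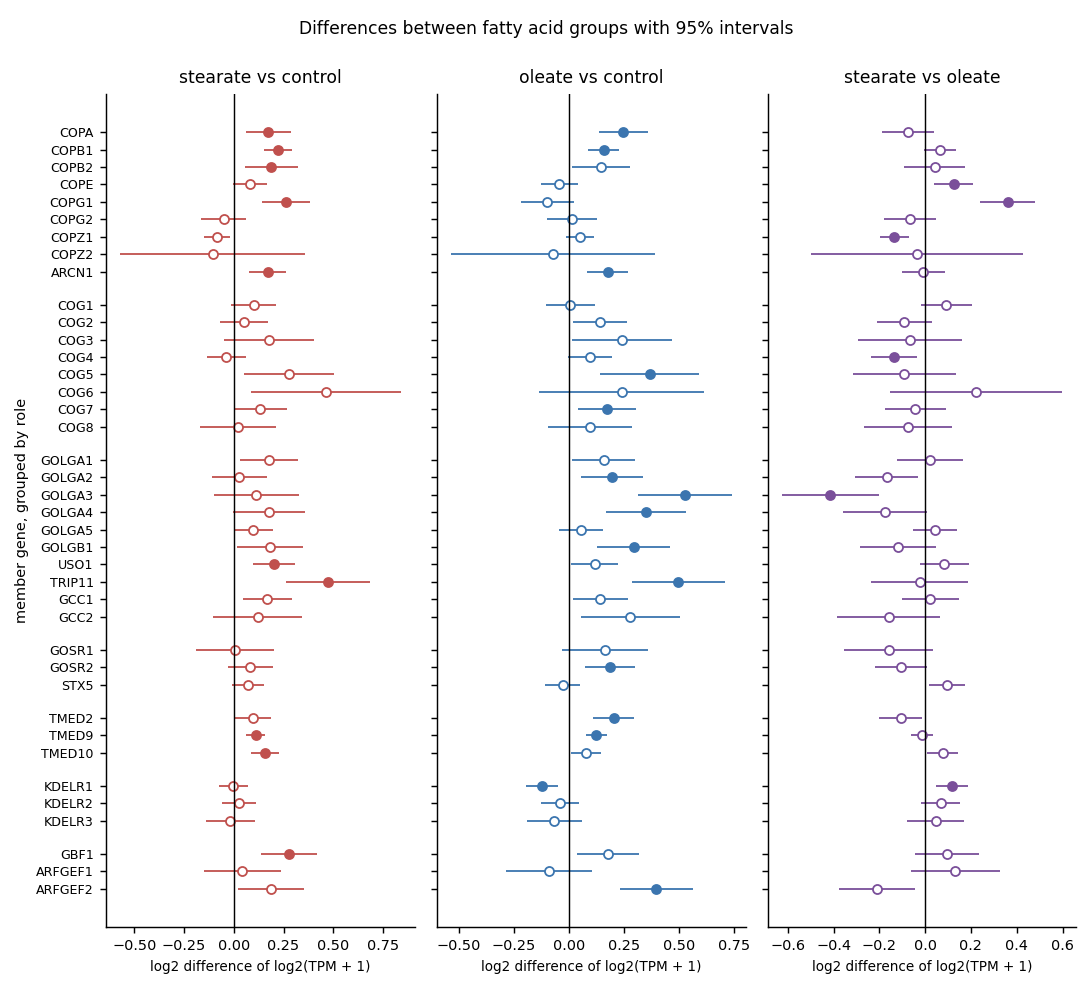
Points are log2 differences of log2(TPM + 1) for the 39 genes, grouped by role from the COPI coat at the top to the ARF exchange factors at the bottom, with 95% intervals from the fit over 3 groups of 6 samples. Filled points have an FDR under 0.05: 10 for stearate against control, 15 for oleate against control and 6 for stearate against oleate.

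Replicates of a condition correlated at 0.982 to 0.987 across genes, and samples of different conditions at 0.978 to 0.987. Epithelial markers were abundant in every sample, with a summed level of 2992 to 3134 TPM in control, 2410 to 2602 in stearate and 2729 to 3045 in oleate. The part of this difference in the results below was not tested. Of 4 markers of serous ovarian tumours, PAX8 was at 7.64 to 16.9 TPM, MUC16 at 0.25 to 1.04, and WT1 and ESR1 stayed under 1 TPM in every sample. Of the fibroblast, leukocyte and endothelial markers, 5 of 6, 4 of 5 and 3 of 4 stayed under 1 TPM in each sample. The exceptions were COL1A1 at 3.1 to 7.17 TPM, CD68 at 81.9 to 113.2 and CDH5 at 0.4 to 1.39. CAY10566 replicate 3 stood apart from the other controls, with the highest value of the 6 controls at 21 of the 39 members and at 40.1% of all genes. Across genes, its deviation from the control mean followed transcript length with a rank correlation of 0.41, where the other 5 controls lay between -0.25 and -0.01, the stearate samples between 0.05 and 0.31 and the oleate samples between 0.22 and 0.41. What sets this library apart was not tested, and a fault in its label or its RNA would bear on each value set against control, so counts of calls against control are also given without it.

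COPB1, the beta subunit, had the smallest p of the coat genes with stearate, although COPG1 differed more. In control it was at 57.05, 57.7 and 58.9 TPM with DMSO and at 59.7, 55.0 and 60.4 TPM with CAY10566. With stearate it was at 70.8, 71.1 and 67.5 TPM, and with stearate+CAY10566 at 66.9, 63.5 and 68.2 TPM. With oleate it was at 64.9, 67.4 and 65.1 TPM, and with oleate+CAY10566 at 67.2, 63.9 and 61.6 TPM. Every sample with a fatty acid therefore lay above every control. The difference was 0.22 ± 0.03 (SE) for stearate (1.17-fold, adjusted p = 0.000158) and 0.16 ± 0.03 for oleate (adjusted p = 0.00368). After rescaling the stearate difference was 0.16 and passed (adjusted p = 0.000327), and the oleate difference was 0.06 and did not (adjusted p = 0.125). The exact permutation p was 0.00216 in each case, the smallest that 6 against 6 samples allow. COPB1 and TMED9 were the 2 members whose stearate and control samples did not overlap, as were 4.70% of all genes with stearate higher and 3.09% with stearate lower. The same 2 members were separate for oleate, where the shares of all genes were 3.49% and 0.573%.

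COPG1, the gamma-1 subunit, moved apart between the fatty acids. Control samples held 65.05, 65.8 and 54.1 TPM with DMSO and 61.7, 58.2 and 54.2 TPM with CAY10566. Stearate samples held 74.0, 74.97 and 77.7 TPM without the inhibitor and 70.6, 72.05 and 62.3 TPM with it. Oleate samples held 52.7, 59.3 and 55.9 TPM without the inhibitor and 51.6, 58.1 and 56.9 TPM with it. All 6 stearate samples exceeded all 6 oleate samples, as happened at 2.94% of all genes, and 5 of the 6 stearate samples exceeded every control. The stearate sample within the control range was stearate+CAY10566 replicate 3. COPG1 rose by 0.26 ± 0.06 with stearate (1.20-fold, adjusted p = 0.00393) and stood 0.36 ± 0.06 above oleate (1.28-fold, adjusted p = 0.000197). Its difference with oleate was -0.10 ± 0.06 (adjusted p = 0.229), which after rescaling became -0.20 (adjusted p = 0.0395).

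COPG2, the paralog that takes the same place in the coat, was far less abundant and did not pass in any of these comparisons. Its control samples were at 9.13, 10.02 and 8.74 TPM with DMSO and at 9.72, 9.58 and 10.0 TPM with CAY10566. In stearate they were at 9, 9.91 and 8.41 TPM, and at 9.28, 9.29 and 9.16 TPM with the inhibitor. In oleate they were at 9.48, 8.78 and 10.3 TPM, and at 9.26, 10.8 and 9.34 TPM with the inhibitor. The 3 groups overlapped, and the interval of the difference ran from -0.16 to 0.06 for stearate and from -0.10 to 0.13 for oleate. COPG1 was 6.28 ± 0.57 times as abundant as COPG2 in control (SD, n = 6), 7.86 ± 0.81 times in stearate and 5.80 ± 0.53 times in oleate. The ratio ran from 6.80 to 9.23 in stearate and from 5.38 to 6.76 in oleate, so these groups did not overlap, while control spanned 5.42 to 7.13 (the ratio was not tested). Reads shared by paralogs such as these were divided by an estimate, so how they split is less certain than the spread shows.

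COPZ1, the zeta-1 subunit and the most abundant coat transcript, went the other way. In control it was at 176.6, 176.1 and 189.5 TPM with DMSO and 185.6, 191.5 and 187.3 TPM with CAY10566. With stearate it was at 171.04, 178.6 and 168.9 TPM, and at 171.07, 186.5 and 168.4 TPM with the inhibitor. With oleate it was at 184.0, 201.4 and 191.1 TPM, and at 185.9, 191.8 and 192.4 TPM with the inhibitor. Stearate+CAY10566 replicate 2 was the only stearate sample to reach the oleate range. COPZ1 was 0.13 ± 0.03 lower with stearate than with oleate (difference -0.13, adjusted p = 0.0047), and its difference from control was -0.08 ± 0.03 (adjusted p = 0.0674). After rescaling the first of these was lost (-0.09, adjusted p = 0.0729) and the second passed (-0.14, adjusted p = 0.0104).

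COPZ2, the paralog of COPZ1, was barely expressed. It was at 2.06, 1.93 and 1.27 TPM with DMSO and 2.57, 0.40 and 1.74 TPM with CAY10566. In stearate it was at 0.57, 1.79 and 0.88 TPM and, with the inhibitor, at 2.30, 1.48 and 1.65 TPM. In oleate it was at 1.58, 1.16 and 0.91 TPM and, with the inhibitor, at 0.91, 2.52 and 1.89 TPM. The CAY10566 samples alone spanned the whole range of the gene, the other conditions overlapped within it, and its intervals, -0.57 to 0.36 for stearate and -0.53 to 0.39 for oleate, allow changes in either direction.

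COPE, the epsilon subunit, was the other coat gene to differ between the fatty acids. Its control samples were at 124.5, 130.6 and 123.2 TPM with DMSO and 114.4, 118.3 and 119.7 TPM with CAY10566. With stearate they were at 133.2, 124.6 and 141.1 TPM, and with the inhibitor at 119.3, 126.4 and 129.7 TPM. With oleate they were at 115.6, 116.3 and 122.0 TPM, and with the inhibitor at 112.3, 116.5 and 126.5 TPM. Stearate samples were mostly the highest, but 2 oleate samples, replicate 3 of each arm, lay among them. COPE was 0.12 ± 0.04 higher with stearate than with oleate (adjusted p = 0.0338). The call held in 11 of the 18 fits that left out 1 sample and in 6 of 10 other settings, with a highest adjusted p among the 18 of 0.0862 without stearate+DMSO replicate 3. Against control it passed in neither comparison, but after rescaling its oleate difference was -0.14 and passed (adjusted p = 0.0392), and with the trend on length and GC content removed its stearate difference was 0.18 and passed (adjusted p = 0.00133).

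Of the remaining large subunits, COPA (alpha) rose from a median of 43.2 TPM in control (41.8 to 47.6) to 49.4 in stearate (45.1 to 55.0) and 53.4 in oleate (45.5 to 56.1). These are 0.17 ± 0.05 for stearate (adjusted p = 0.0305) and 0.25 ± 0.05 for oleate (adjusted p = 0.00429). The stearate rise of COPA held in 11 of the 18 fits that left out 1 sample, with a highest adjusted p of 0.0736 without stearate+CAY10566 replicate 3. It was lost with no filter on TPM, after rescaling (0.11, adjusted p = 0.0685) or removal of the trend on length and GC content (0.11, adjusted p = 0.0885). ARCN1 (delta) rose by 0.17 ± 0.04 with stearate and 0.18 ± 0.04 with oleate, from 72.6 to 82.4 TPM in control to 80.5 to 94.4 and 80.7 to 96.6 TPM. After rescaling the stearate rise of ARCN1 still passed (adjusted p = 0.0319) and the oleate rise did not (adjusted p = 0.117). COPB2 (beta prime) rose by 0.19 ± 0.06 with stearate at an adjusted p of 0.0444, close to the threshold. This held in 9 of the 18 fits that left out 1 sample and in 2 of 10 other settings, with a highest adjusted p among the 18 of 0.107 without DMSO replicate 2. The summed TPM of the 9 coat genes was 607 ± 7 in control, 648 ± 17 in stearate and 637 ± 21 in oleate (SD, n = 6). Within that sum the share of COPG1 was 9.85% ± 0.87, 11.1% ± 0.70 and 8.75% ± 0.27, and that of COPZ1 was 30.4% ± 1.21, 26.9% ± 1.10 and 30.0% ± 0.30.

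**Figure D3:**
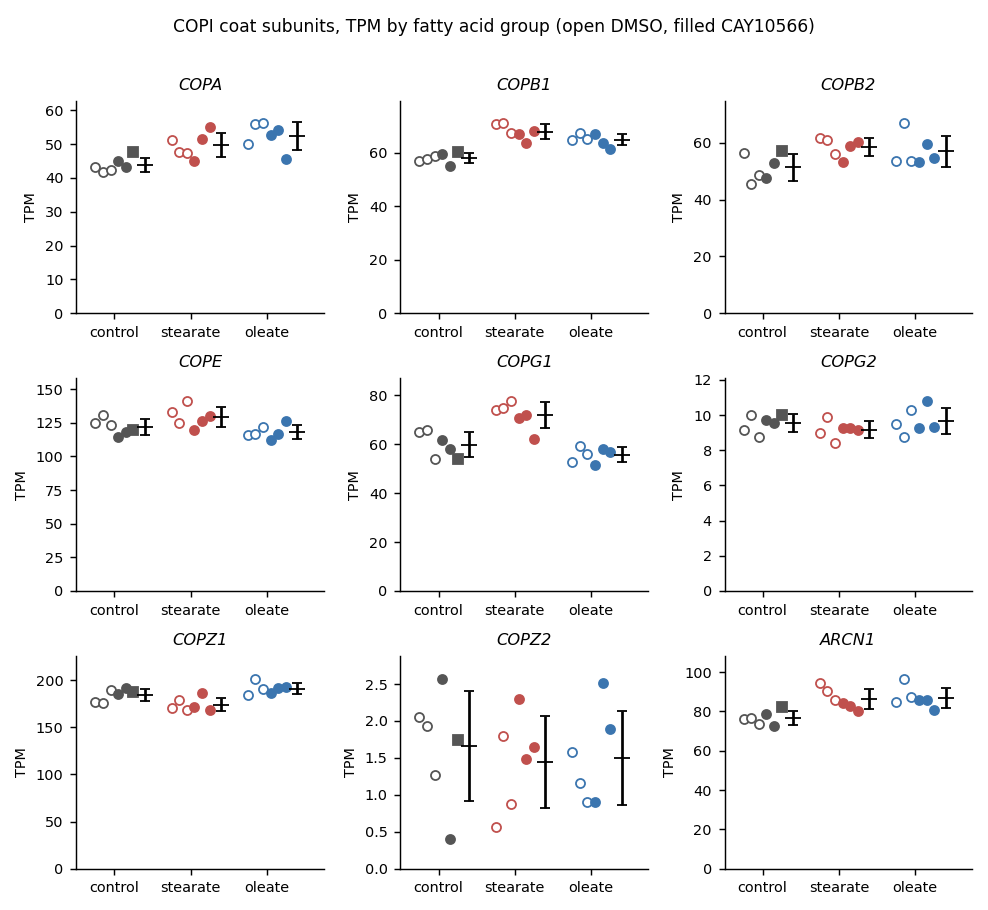
Each panel gives TPM of 1 COPI coat gene in the 18 samples, open points with DMSO and filled points with CAY10566, with CAY10566 replicate 3 as a square, beside the mean and SD of each group of 6. COPB1 is above every control in both fatty acid groups, COPG1 is high in stearate alone, and COPG2 and COPZ2 sit at about 10 TPM or lower in each group.

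Promoters of these genes were read because the 5 coat genes that rose with stearate rose together. A set of 5 short motifs known from the ER and Golgi stress responses were searched on both strands of the RefSeq promoter windows of GRCh38.p14, from 250 bases before to 50 after each start. They were the ERSE (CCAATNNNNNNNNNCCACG), the ERSE-II, the UPRE (TGACGTGG), the CRE (TGACGTCA) and a Golgi stress element (ACGTGGC). The last overlaps the UPRE in part of its letters, so that a single site can match both. Windows were given for 33 of the 39 members, and a gene with several windows was counted once. The UPRE was in 8 of the 33 (24.2%), against 0.927% of all 27305 genes with a window and 1.19% of the genes tested here. The Golgi stress element was in 11 (33.3%), against 3.95% and 5.63%. Either was in 14 members (42.4%, against 4.51% and 6.24%), and in 4 of them the matches overlapped. The CRE was found in 1 member, GCC1 (2.25% of all genes), and neither ERSE (0.0916%) nor ERSE-II (0.0696%) was found in any. By test, 6 of the 8 members with a window that rose with stearate held the UPRE or the Golgi element, and 8 of the 25 that did not rise. For oleate it was 5 of 11 and 9 of 22. Without CAY10566 replicate 3, COG5, COG6, GOLGA3, GOLGA4, GOLGB1, GCC1 and ARFGEF2 also rose with stearate. Of these GOLGA3 alone held a match to either element, so the stearate split turned on that library. Among the members gained with oleate, COPB2 and GBF1 held a match.

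All 5 coat genes that rose with stearate held such a match and 1 of the other 4 did, COPZ2. The match of COPZ2 began 41 bases after its start, and that of COPA 6 bases after its own. The search was prompted by these same calls, so the split is a description and no test of the elements. For oleate it was 3 of 3 that rose and 3 of 6 that did not. The stearate calls of COPA and COPB2 were lost after rescaling and with the trend on length and GC content removed, so the grouping of 5 depends on the processing. The stretches from 70 bases before to 20 after the start are shown for those 5 and for COPG2, the paralog without a match, each in the direction of its gene with the matched letters in capitals. The match in the stretch shown is a UPRE in COPA, COPB1 and COPB2 (in the last 2 on the opposite strand) and a Golgi stress element in COPG1 and ARCN1. COPB2 held further UPRE and Golgi stress element matches upstream of it. They are a description of the letters in these windows, and binding was not measured.
COPA, chr1:160343231-160343320, minus strand: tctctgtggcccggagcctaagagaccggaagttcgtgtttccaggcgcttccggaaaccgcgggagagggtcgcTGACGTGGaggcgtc
COPB1, chr11:14499792-14499881, minus strand: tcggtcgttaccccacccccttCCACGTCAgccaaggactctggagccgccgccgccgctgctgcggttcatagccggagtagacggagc
COPB2, chr3:139389628-139389717, minus strand: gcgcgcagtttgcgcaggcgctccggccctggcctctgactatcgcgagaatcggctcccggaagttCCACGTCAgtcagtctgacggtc
COPG1, chr3:129249536-129249625, plus strand: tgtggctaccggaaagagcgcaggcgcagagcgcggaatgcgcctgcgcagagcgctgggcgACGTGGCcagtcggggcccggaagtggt
ARCN1, chr11:118572339-118572428, plus strand: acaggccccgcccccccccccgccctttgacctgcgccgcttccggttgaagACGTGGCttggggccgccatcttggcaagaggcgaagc
COPG2, chr7:130668729-130668818, minus strand: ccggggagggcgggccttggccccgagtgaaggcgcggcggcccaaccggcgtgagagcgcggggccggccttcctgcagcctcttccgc

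Among the exchange factors that switch on ARF GTPases, GBF1 rose with stearate and ARFGEF2 with oleate. GBF1 acts on early Golgi membranes, where COPI buds. It had a median of 11.4 TPM in control (10.3 to 13.2), 14.2 in stearate (12.5 to 16.1) and 13.0 in oleate (12.4 to 14.0). Its difference was 0.28 ± 0.07 for stearate (1.21-fold, adjusted p = 0.00757) and 0.18 ± 0.07 for oleate (adjusted p = 0.0547), and the stearate samples did not separate from the oleate samples (0.10, interval -0.05 to 0.24).

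ARFGEF2 acts on the trans-Golgi network. It was at 15.3, 13.9 and 14.7 TPM with DMSO and at 15.3, 15.6 and 20.8 TPM with CAY10566. In the stearate samples it was at 20.8, 19.02 and 16.4 TPM, and with the inhibitor at 16.3, 17.5 and 19.2 TPM. In the oleate samples it was at 21.02, 22.9 and 22.2 TPM, and with the inhibitor at 21.4, 20.5 and 19.2 TPM. CAY10566 replicate 3 was the only control to reach the oleate range. The difference was 0.40 ± 0.08 for oleate (1.32-fold, adjusted p = 0.003, exact permutation p = 0.00649) and 0.19 ± 0.08 for stearate (adjusted p = 0.103). Without CAY10566 replicate 3 the stearate difference was 0.26 and passed (adjusted p = 0.00452).

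ARFGEF1, the paralog at the same compartment, was at 7.33, 8.57 and 11.01 TPM with DMSO and 9.56, 10.5 and 10.5 TPM with CAY10566. Under stearate it was at 9.25, 9.53 and 8.96 TPM, and with the inhibitor at 13.3, 9.17 and 9.31 TPM. Under oleate it was at 9.41, 9.58 and 8.51 TPM, and with the inhibitor at 8.52, 8.58 and 8.72 TPM. The groups overlapped, and its intervals were -0.15 to 0.24 for stearate and -0.28 to 0.11 for oleate. The oleate interval of ARFGEF2, 0.23 to 0.56, lay above that of ARFGEF1.

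The KDEL receptors bind the retrieval signal at the end of ER chaperones and return them in COPI vesicles. KDELR1, the most abundant of the 39 genes, was at 323.9, 330.2 and 319.8 TPM with DMSO and at 318.4, 324.5 and 285.9 TPM with CAY10566. Stearate gave 318.02, 322.3 and 322.6 TPM, and with the inhibitor at 334.7, 297.5 and 303.5 TPM. Oleate gave 289.3, 293.3 and 299.1 TPM, and with the inhibitor at 280.9, 300.6 and 285.9 TPM. The 5 other controls were above every oleate sample, and CAY10566 replicate 3 lay inside the oleate range. KDELR1 fell by 0.12 ± 0.03 with oleate (adjusted p = 0.0168) and was 0.12 ± 0.03 higher with stearate than with oleate (adjusted p = 0.0206), with a stearate interval of -0.07 to 0.07 against control. Once the trend on length and GC content had been taken out, both differences missed the threshold (-0.02, adjusted p = 0.623, and 0.08, adjusted p = 0.0619). After rescaling the fall with oleate was -0.22 (adjusted p = 0.00486).

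KDELR2 did not pass when the inhibitor arms were pooled, and its samples ordered differently within them. It was at 136.9, 138.5 and 132.9 TPM with DMSO and at 126.8, 125.0 and 116.1 TPM with CAY10566. Stearate samples were at 129.7, 129.3 and 130.7 TPM, and with the inhibitor at 138.3, 132.5 and 129.7 TPM. Oleate samples were at 120.3, 122.03 and 118.9 TPM, and with the inhibitor at 132.4, 133.2 and 127.9 TPM. Without the inhibitor all oleate samples were below all controls, and with it all were above. In the model of 6 conditions KDELR2 fell by 0.18 ± 0.04 with oleate in DMSO (adjusted p = 0.0056), and its difference with oleate in CAY10566 was 0.10 ± 0.04 (adjusted p = 0.312). The difference between these, 0.27 ± 0.05, had an unadjusted p of 0.000106 but missed the threshold over all genes (adjusted p = 0.419).

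KDELR3, the least abundant receptor, was at 17.9, 17.81 and 21.8 TPM with DMSO and 18.3, 16.6 and 18.2 TPM with CAY10566. Stearate samples were at 17.9, 17.77 and 18.5 TPM, and with the inhibitor at 20.3, 16.7 and 18.0 TPM. Oleate samples were at 16.5, 16.1 and 17.3 TPM, and with the inhibitor at 19.1, 18.03 and 18.4 TPM. Its groups overlapped, and the intervals were -0.14 to 0.11 for stearate and -0.19 to 0.06 for oleate. Of 11 genes for ER lumen proteins that carry the retrieval signal, 8 rose with stearate and 5 with oleate, with and without CAY10566 replicate 3. Of all genes 13.5% and 23.0% rose with that library included, and 20.3% and 30.1% without it. HSPA5, the main ER chaperone of the Hsp70 kind, rose by 0.28 with stearate (adjusted p = 2.14e-05), and its difference with oleate was 0.06 (adjusted p = 0.222). HSP90B1 rose by 0.14 and 0.13. These clients and their receptors were counted side by side without a test of the difference between the lists.

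The p24 proteins are membrane proteins that travel in COPI and COPII vesicles as cargo receptors. TMED9 was at 237.5, 242.6 and 246.2 TPM with DMSO and 233.2, 230.8 and 240.1 TPM with CAY10566. Stearate gave 264.7, 257.9 and 251.7 TPM, and with the inhibitor at 251.04, 257.6 and 261.1 TPM. Oleate gave 250.2, 262.8 and 266.03 TPM, and with the inhibitor at 257.7, 259.5 and 263.9 TPM. All 12 fatty acid samples lay above all 6 controls, by a small margin. TMED9 rose by 0.11 ± 0.02 with stearate (1.08-fold, adjusted p = 0.00231) and 0.13 ± 0.02 with oleate (1.09-fold, adjusted p = 0.00238). After rescaling both differences were smaller and did not pass (0.05, adjusted p = 0.175, and 0.03, adjusted p = 0.526).

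TMED10 was at 216.4, 223.2 and 214.7 TPM with DMSO and 217.1, 218.3 and 241.2 TPM with CAY10566. Stearate samples were at 250.3, 253.6 and 229.8 TPM, and with the inhibitor at 245.3, 240.9 and 264.3 TPM. Oleate samples were at 232.2, 235.7 and 226.8 TPM, and with the inhibitor at 236.2, 238.1 and 237.2 TPM. CAY10566 replicate 3 was above every oleate sample, and the other 5 controls were below all of them. TMED10 rose by 0.16 ± 0.03 with stearate (adjusted p = 0.00263), and its difference with oleate was 0.08 ± 0.03 (adjusted p = 0.0775). The latter was 0.10 without CAY10566 replicate 3 (adjusted p = 0.00872) and -0.02 after rescaling (adjusted p = 0.691). TMED2 rose by 0.20 ± 0.04 with oleate, from 105.5 to 113.4 TPM in control to 110.9 to 142.5 TPM, and its difference with stearate was 0.10 ± 0.04 (adjusted p = 0.129). The oleate rise of TMED2 was lost after rescaling (0.10, adjusted p = 0.0711).

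**Figure D4:**
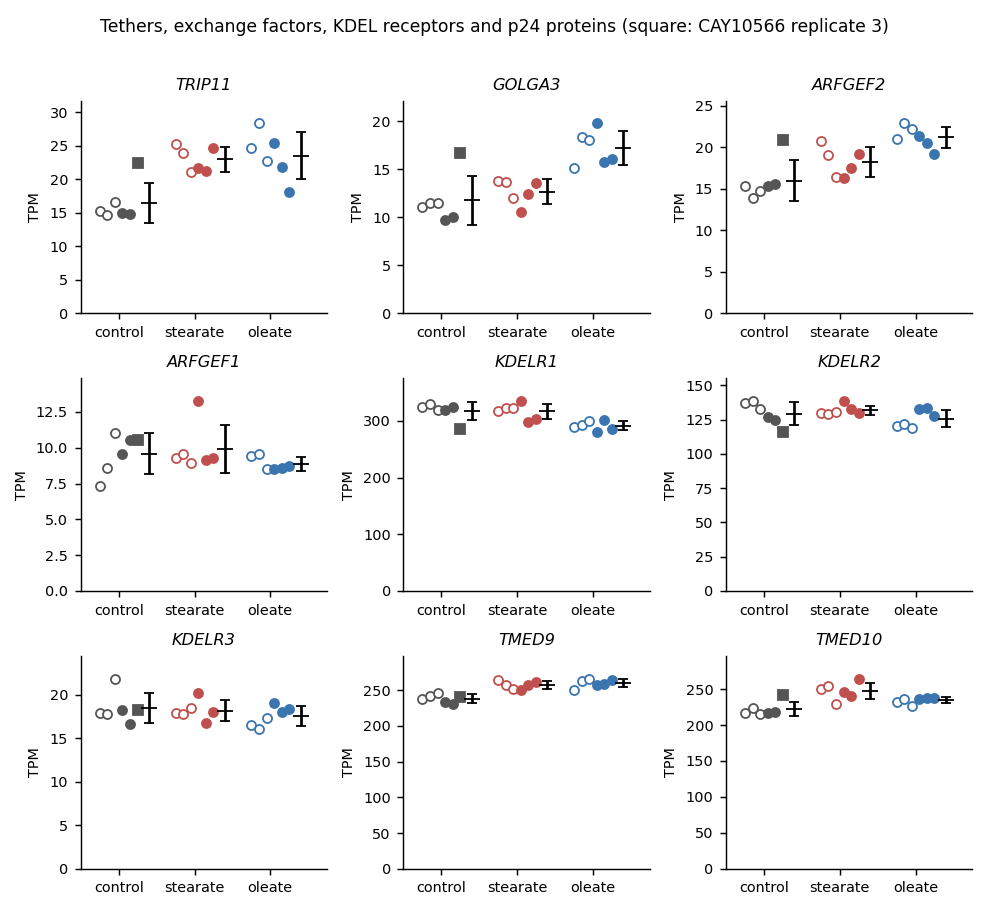
Each panel gives TPM of 1 tether, exchange factor, receptor or p24 gene in the 18 samples, open points with DMSO and filled points with CAY10566, beside the mean and SD of each group of 6. The square, CAY10566 replicate 3, lies above the other controls for TRIP11, GOLGA3, ARFGEF2 and TMED10 and below them for KDELR1 and KDELR2.

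Of the golgins and coiled-coil tethers, 2 of 10 rose with stearate and 5 with oleate, where 13.5% and 23.0% of all genes rose. The stearate count is near that share, but without CAY10566 replicate 3 it was 6 of 10, and 8 with oleate, where 20.3% and 30.1% of all genes rose. The stearate differences gained were 0.24 for GOLGA4 (adjusted p = 0.0351), 0.23 for GOLGB1 (adjusted p = 0.0321), 0.20 for GCC1 (adjusted p = 0.0173) and that of GOLGA3 given below. All 10 differences were positive in each comparison, as were 9118 of all 13789 genes with stearate and 10047 with oleate. After rescaling, however, GOLGA2 stood at -0.03 with stearate and GOLGA5 at -0.04 with oleate. TRIP11, a golgin of the cis-Golgi, changed most with stearate among the members that passed. Its lowest, median and highest values were 14.6, 15.1 and 22.3 TPM in control, 21.1, 22.8 and 25.2 in stearate, and 18.1, 23.7 and 28.3 in oleate. A single control, CAY10566 replicate 3, lay within the stearate range. The difference was 0.47 ± 0.10 for stearate (1.39-fold, adjusted p = 0.00308) and 0.50 ± 0.10 for oleate (1.41-fold, adjusted p = 0.00324). It was 0.56 and 0.59 without CAY10566 replicate 3, and 0.38 and 0.36 once the trend on length and GC content was removed, and it passed in each case.

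GOLGA3 is a large golgin that separated the fatty acids. It was at 11.04, 11.47 and 11.53 TPM with DMSO and 9.76, 10.1 and 16.7 TPM with CAY10566. Stearate samples were at 13.8, 13.6 and 11.99 TPM, and with the inhibitor at 10.5, 12.4 and 13.6 TPM. Oleate samples were at 15.2, 18.4 and 18.03 TPM, and with the inhibitor at 19.8, 15.8 and 16.1 TPM. Every stearate sample was below every oleate sample, as happened at 7.28% of all genes, and only CAY10566 replicate 3 among the controls reached the oleate range. GOLGA3 rose by 0.53 ± 0.10 with oleate (1.44-fold, adjusted p = 0.00283), its difference with stearate was 0.11 ± 0.10 (adjusted p = 0.457), and stearate stood at -0.41 ± 0.10 against oleate (adjusted p = 0.00689). Without CAY10566 replicate 3 its stearate difference was 0.21 (adjusted p = 0.0493).

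Other golgins followed oleate at smaller size. GOLGA4, of the trans-Golgi, rose by 0.35 ± 0.09, GOLGB1, the giant golgin of the cisternal rims, by 0.30 ± 0.08, and GOLGA2, of the cis face, by 0.20 ± 0.07 (adjusted p = 0.0366). For GOLGB1 the level went from a median of 9.31 TPM in control to 11.7 TPM in oleate, with overlapping ranges of 7.54 to 10.95 and 10.1 to 12.3. The calls of GOLGA2 and GOLGB1 were lost with the trend on length and GC content removed, and that of GOLGA2 also after rescaling (adjusted p = 0.183) and in 9 of the 18 fits that left out 1 sample. USO1, the tether between ER-derived vesicles and the cis-Golgi, rose by 0.20 ± 0.05 with stearate (adjusted p = 0.01), and its difference with oleate was 0.12 ± 0.05 (adjusted p = 0.0967). GOLGA1, GOLGA5, GCC1 and GCC2 did not pass in either comparison, with differences from 0.06 to 0.28. GCC1 was close with stearate (0.17, adjusted p = 0.0527), and it passed there without CAY10566 replicate 3, with the trend on length and GC content removed (0.17, adjusted p = 0.0473) and in the DMSO samples alone (0.29, adjusted p = 0.0379). With oleate GCC1 and GCC2 passed without CAY10566 replicate 3, at 0.18 (adjusted p = 0.0249) and 0.35 (adjusted p = 0.011).

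The COG complex holds the tether for traffic within the Golgi, and none of its 8 subunits rose or fell with stearate, while 2 rose with oleate. Against the 13.5% and 23.0% of all genes that rose, neither count sets the complex apart. Without CAY10566 replicate 3, COG5 (0.37, adjusted p = 0.00667) and COG6 (0.52, adjusted p = 0.0462) passed with stearate, where 20.3% of all genes rose, and only COG5 of the 2 still passed with oleate. COG5 rose by 0.37 ± 0.11 with oleate (adjusted p = 0.019), from 16.8 to 29.04 TPM in control to 25.4 to 30.2 TPM, and its call was lost without DMSO replicate 2 (adjusted p = 0.0525) and after rescaling (adjusted p = 0.0595). COG7 rose by 0.17 ± 0.06 at an adjusted p of 0.0494, which held in 4 of the 18 fits that left out 1 sample and in 4 of 10 other settings. It was lost after rescaling (0.08, adjusted p = 0.383) and, at its weakest among the 18, without oleate+DMSO replicate 3 (adjusted p = 0.12). COG6 had a difference of 0.46 ± 0.18 with stearate (adjusted p = 0.0764). Its stearate+DMSO replicate 3 sample was at 18.95 TPM, where the other 5 stearate samples lay at or below 10.2 TPM.

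COG4 differed between the fatty acids. It was at 27.3, 26.9 and 25.5 TPM with DMSO and 27.8, 27.1 and 27.2 TPM with CAY10566. Stearate samples were at 28.4, 25.8 and 26.4 TPM, and with the inhibitor at 24.0, 26.9 and 26.1 TPM. Oleate samples were at 27.5, 30.1 and 32.3 TPM, and with the inhibitor at 26.05, 28.7 and 29.1 TPM. The groups overlapped. COG4 stood at -0.14 ± 0.05 in stearate against oleate (adjusted p = 0.0461), and the call held in 5 of the 18 fits that left out 1 sample and in 4 of 10 other settings. It was lost after rescaling (-0.10, adjusted p = 0.111), and its highest adjusted p among the 18 was 0.116, without oleate+DMSO replicate 3. Of the Golgi SNAREs, which drive the fusion of the tethered vesicle, none passed with stearate, although STX5 did once the trend on length and GC content was removed (0.13, adjusted p = 0.0208), and GOSR2 rose with oleate by 0.19 ± 0.05 (adjusted p = 0.0181), which was 0.09 and lost after rescaling (adjusted p = 0.221). The differences of GOSR1 and STX5 with oleate were 0.16 (adjusted p = 0.203) and -0.03 (adjusted p = 0.655), and after rescaling that of STX5 was -0.12 and passed (adjusted p = 0.0254).

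No member passed in the comparison of CAY10566 with DMSO. Over 9 against 9 samples, 6 of each 9 with a fatty acid and the fatty acid as a covariate, 0 of the 39 passed, and 0 of all genes did (0%). At an unadjusted p under 0.05 there were 0 members and 748 of all genes. Without fatty acid, 3 against 3 samples, 0 members passed and 4 were at an unadjusted p under 0.05 (GCC2, GOSR1, GOSR2 and KDELR2), as were 1399 of all genes. Within the DMSO arm, in a model of 6 conditions, stearate raised 9 members and lowered none (10.5% of all genes rose and 3.53% fell), and oleate raised 16 and lowered 2, KDELR1 and KDELR2 (21.1% and 3.10%). Without stearate+DMSO replicate 1 the 9 became 2, and 3.10% of all genes then rose. Without DMSO replicate 2 or oleate+DMSO replicate 2 the 18 for oleate became 10. Without DMSO replicate 2, 11% of all genes then rose and 1.4% fell. Within the CAY10566 arm stearate raised 2, COPB1 and TMED9 (2.18% of all genes rose and 2.57% fell). Oleate in that arm raised and lowered 0 (0.0580% and 0.0508%), with 10 members at an unadjusted p under 0.05, as were 1852 of all 13789 genes. This does not show that the inhibitor changed the response: the interaction passed for 0 members with stearate and 0 with oleate. At an unadjusted p under 0.05 there were 5 and 6 members, and 1290 and 1415 of all 13789 genes. CAY10566 replicate 3 is 1 of the 3 controls in the CAY10566 arm, and without it the counts there were 4 for stearate and 4 for oleate, where 2.79% and 4.42% of all genes rose. They were COPB1, TRIP11, TMED9 and TMED10 with stearate, and GOLGA3, TRIP11, TMED9 and ARFGEF2 with oleate.

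COPG1 kept its difference between the fatty acids in each arm. It stood 0.43 ± 0.08 higher with stearate than with oleate in DMSO (adjusted p = 0.00269) and 0.29 ± 0.08 higher in CAY10566 (adjusted p = 0.0306). GOLGA3 differed by -0.36 ± 0.15 in DMSO (adjusted p = 0.159) and -0.47 ± 0.15 in CAY10566 (adjusted p = 0.076). TRIP11 had differences from control of 0.57 with stearate in DMSO and 0.38 in CAY10566, and of 0.67 and 0.32 with oleate, each ± 0.14. Those in DMSO passed (adjusted p = 0.0174 and 0.0053) and those in CAY10566 did not (adjusted p = 0.142 and 0.341).

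Longer transcripts differed more. Over the 39 members, the difference from control had a rank correlation with the length of the longest annotated transcript of 0.54 for stearate and 0.71 for oleate. Over all genes with a length it was 0.24 and 0.46. These points share libraries and are not independent, so no test is given. The 15 members of at least 5000 bases, which include TRIP11, GOLGA3, GOLGB1, GOLGA4 and ARFGEF2, had a median difference of 0.18 with stearate and 0.25 with oleate. The 24 shorter members, which include COPB1, COPG1 and TMED9, had 0.10 and 0.09. The same split gave 0.11 against 0.04 over all genes for stearate and 0.19 against 0.06 for oleate. In the CAY10566 arm alone, where CAY10566 replicate 3 is a control, the correlation over members was 0.01 for stearate and 0.33 for oleate. With that trend taken out per sample, together with one on GC content, 11 members rose with stearate and none fell (13.1% and 5.22% of all genes), and 13 rose and none fell with oleate (22.0% and 1.92%). The member median was then 0.10 for stearate and 0.11 for oleate, against 0.06 and 0.09 over all genes. The part of transcript length in the single differences was not tested further.

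**Figure D5:**
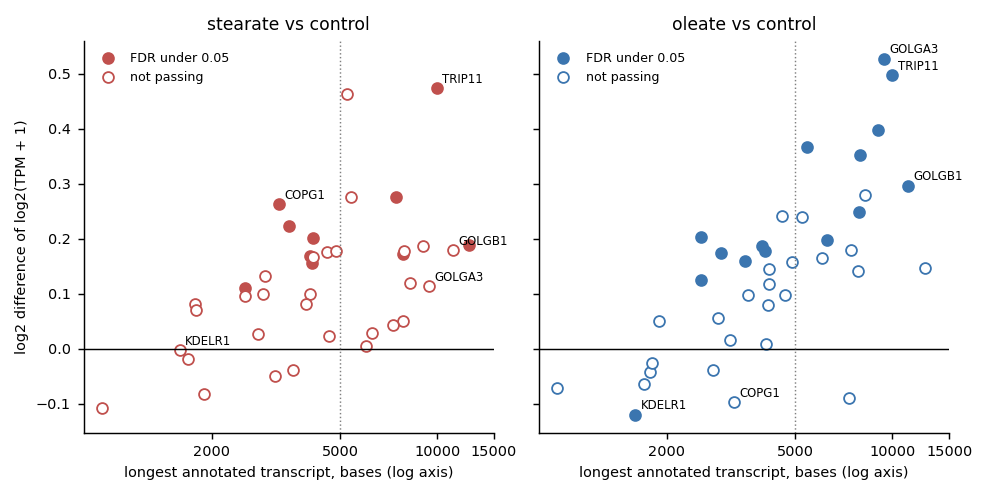
The log2 difference from control of each member is plotted against the length of its longest annotated transcript in bases on a log axis, for stearate and for oleate, with filled points at an FDR under 0.05 and a dotted line at 5000 bases. Points rise to the right in both panels, with GOLGA3 and TRIP11 at the top right for oleate and KDELR1 at the lower left, while COPG1 lies high for stearate at a length of 3231 bases and below 0 for oleate.

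The rest of the machinery was followed through 83 related genes, of which 82 were tested and CREB3L1, with a mean of 0.293 TPM, was not. With stearate 29 rose and 3 fell, against 13.5% and 5.97% of all genes, and with oleate 31 rose and 1 fell, against 23.0% and 2.70%. Without CAY10566 replicate 3, 33 rose and 4 fell with stearate, where 20.3% and 6.53% of all genes did. With oleate 34 then rose and 1 fell, where 30.1% and 4.11% of all genes did. No list below moved by more than 2 genes in a direction. The counts of the smaller lists that follow use all 18 samples and stand against the shares of 13.5% and 23.0% that rose, and few genes make up each list. Among ARF GTPases and the proteins that switch them off, 1 of 7 rose with stearate and 4 with oleate, with ARF4 rising by 0.16 and 0.20 and ARF3 by 0.30 with oleate. The difference of ARFGAP2 was 0.10 with stearate (adjusted p = 0.107) and 0.17 with oleate (adjusted p = 0.0115). Of the other p24 proteins 2 of 5 and 4 of 5 rose, TMED7 by 0.25 and 0.20 and TMED5 by 0.19 and 0.18. On the ER side, where COPI vesicles arrive, 3 of 7 rose and 1 fell with stearate and 2 rose with oleate, among them the SNARE SEC22B (0.20 and 0.14) and the tether subunit RINT1 (0.22 and 0.15).

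Of 11 Golgi matrix and peripheral proteins 6 rose with stearate and 7 with oleate, GOLM1 by 0.23 and 0.20 and TMF1 by 0.28 and 0.29. Of 13 other Golgi SNAREs and fusion factors 4 rose and 1 fell with stearate, and 5 rose and 1 fell with oleate. NSF, the ATPase that takes spent SNARE complexes apart, rose by 0.22 and 0.20, and STX10 fell by 0.20 with stearate, with a difference of -0.06 (adjusted p = 0.323) for oleate. GARP and TRAPP tethers gave 1 of 17 in each comparison, TRAPPC10, which rose by 0.32 and 0.42. The difference of VPS54 was 0.18 with stearate (adjusted p = 0.077).

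The small GTPase ARFRP1, which places ARL1 and golgins on the trans-Golgi, moved in opposite directions with the fatty acids. It fell by 0.34 ± 0.04 with stearate (adjusted p = 1.41e-05) and rose by 0.13 ± 0.04 with oleate (adjusted p = 0.0275), so that stearate stood at -0.46 ± 0.04 against oleate (adjusted p = 1.16e-07). ARL1 rose by 0.27 with stearate, and its difference with oleate was 0.07 (adjusted p = 0.372). Of 3 transcription factors tied to Golgi stress, CREB3, CREB3L2 and TFE3, 2 rose with stearate. CREB3 rose by 0.17 ± 0.04 (adjusted p = 0.00978), and its difference with oleate was 0.00 ± 0.04 (adjusted p = 0.968), while CREB3L2 rose by 0.28 and 0.26.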

How the data were processed

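RNA of 18 samples of OVCAR5 cells was sequenced by the authors as 100 bp paired-end reads from stranded mRNA libraries, trimmed with Trim Galore, aligned with STAR 2.7.1a to GRCh38 (Ensembl release 99) and quantified with RSEM. The authors deposited 1 table of TPM per gene. Each sample has the same sum, so depth is not known. A single line that names no gene was left out. Symbols were found for 56321 of 60483 gene IDs (93.1%), and lengths and positions came from GENCODE release 44 on the same build (98.8% of tested genes).

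Samples were grouped by their labels. Tests used limma 3.58.1 in R 4.3.3 (lmFit, then eBayes with the variance trend). It was run on log2(TPM + 1) of the 13789 genes whose mean TPM reached 1, with Benjamini-Hochberg adjustment over all of them. Errors after differences are standard errors, and two-sided exact permutation tests over all 924 splits of 6 against 6 samples were run for single genes. The procedure was tested on simulated data. Figures used matplotlib 3.10.9 in Python 3.11.15.

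The members and lists were chosen with earlier results of these data known. Given in full were, for each of 3 comparisons, up to 3 members in each direction with the smallest p among those passing, the KDEL receptors and the paralog pairs COPG1 and COPG2, COPZ1 and COPZ2, and ARFGEF1 and ARFGEF2. Other members were summarised with 2 to 4 examples per role, and related lists by counts with the 2 genes of smallest p for stearate. The promoter search and the transcript length split were added after the values were seen. Alternatives were a pseudocount of 0.1, no filter, a stricter filter (mean TPM 5), no variance trend, rescaling, a replicate block, each sample left out, each inhibitor arm alone, CAY10566 as a covariate, and removal of trends on length and GC content.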

Additional observations from a re-analysis of the deposited data

Results flagged for a closer look

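Within each group of 6 samples, a value was picked out where its gap to the nearest of the others was a larger share of the group's range than Dixon's critical value. This examined 117 groups (39 genes in 3 fatty acid groups) and picked out 14. The chance rate of that rule, about 1 in 20, holds for independent values drawn alike. These groups mix both inhibitor arms, and the genes share libraries. The share over all genes was not computed, so the 14 are only described. CAY10566 replicate 3 was picked out for 6 genes: GOLGA2 at 51.2 TPM (next highest control 40.6), GOLGA3 at 16.7 (11.53), TRIP11 at 22.3 (16.5), TMED10 at 241.2 (223.2), ARFGEF2 at 20.8 (15.6) and, as the lowest control, KDELR1 at 285.9 (318.4). The cause was not tested. The other controls picked out were COG7 in DMSO replicate 1 at 16.1 TPM and KDELR3 in DMSO replicate 3 at 21.8 TPM.

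Among stearate samples, COG6 stood at 18.95 TPM in stearate+DMSO replicate 3, GOSR1 at 19.6 in stearate+DMSO replicate 1, and KDELR2 at 138.3 and ARFGEF1 at 13.25 in stearate+CAY10566 replicate 1. Among oleate samples, COG1 stood at 24.3 in oleate+CAY10566 replicate 2 and COG6 at 15.3 in oleate+DMSO replicate 3. The high COG6 values thus came in replicate 3 of each fatty acid with DMSO.

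For 4 effects every fatty acid sample lay on one side of the mean of its 3 controls with DMSO and on the other side with CAY10566, although single values could overlap those controls, as for KDELR3 in CAY10566 (18.03 to 19.1 TPM against 16.6 to 18.3). GOSR1 differed from control by 0.27 with stearate in DMSO and by -0.26 in CAY10566 (difference -0.52, unadjusted p = 0.00266, adjusted p = 0.452). KDELR2 did so with stearate (-0.07 and 0.12, difference 0.19, adjusted p = 0.452) and with oleate (-0.18 and 0.10, difference 0.27, adjusted p = 0.419), and KDELR3 with oleate (-0.19 and 0.06, difference 0.25, adjusted p = 0.474). None of the 4 passed the interaction test in limma. How many of all genes show such a switch was not counted, and CAY10566 replicate 3 is 1 of the 3 controls with CAY10566.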

How the results depend on the processing

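Among differences with an unadjusted p under 0.05 or passing under the alternative, 2 turned over: TMED10 with oleate was -0.0196 after median-of-ratios rescaling, and COPB2 with oleate was -0.0036 with the trend on length and GC content removed, neither passing. Rescaling took the members higher with oleate from 14 to 6, where the share of all genes went from 23% to 9.07%. The count passing in the DMSO arm went from 9 to 4 for stearate and from 18 to 11 for oleate, where 16 higher and 2 lower became 6 higher and 5 lower. Of all genes in that arm, 10.5% higher and 3.53% lower became 5.13% and 6.94% for stearate. For oleate, 21.1% higher and 3.1% lower became 10.4% and 9.5%. In the CAY10566 arm of the 6-condition model, the 2 members that passed with stearate became 1 after rescaling, 1 with no filter and 0 without a trend in the variances. Of all genes 1.86%, 0.615% and 2.12% rose in those settings, against 2.18% in the main fit. Oleate passed there for 1 member with the length and GC trend removed, where 0.205% of all genes rose. Fitted to the CAY10566 samples alone, 0 members passed in each of the 3 comparisons, where fewer samples entered. Of all genes 0.529% were higher and 1.24% lower with stearate, 0% and 0.029% with oleate, and 0.827% and 2.86% between the fatty acids. The cause was otherwise not tested.

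With each sample left out in turn, members higher ranged from 8 to 17 for stearate and 11 to 20 for oleate, and those passing between the fatty acids from 4 to 9. The shares of all genes moved too. Without DMSO replicate 2, at 8 and 11 members, 10.1% rose with stearate and 16.1% with oleate. Without CAY10566 replicate 3, at 17 and 20, it was 20.3% and 30.1%. In the DMSO arm the members passing ranged from 2 (without stearate+DMSO replicate 1) to 11 (without CAY10566 replicate 3) for stearate, where 3.1% and 14.3% of all genes rose. There were 4 without DMSO replicate 2 or stearate+DMSO replicate 2 and 5 without DMSO replicate 3. For oleate in that arm they ranged from 10 (without DMSO replicate 2 or oleate+DMSO replicate 2) to 20, with 11 without oleate+DMSO replicate 3. Of all genes 11% rose there without DMSO replicate 2, and 21.4% without CAY10566 replicate 2, where 20 members passed. In the CAY10566 arm they ranged from 0 to 4 for each: 4 without CAY10566 replicate 3 and, for stearate, 0 without CAY10566 replicate 1 or 2 or stearate+CAY10566 replicate 3 and 1 without stearate+CAY10566 replicate 1 or 2. The inhibitor and the interactions stayed at 0 in all of these.

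Same-numbered samples correlated in their deviations from condition means by -0.18 to 0.10 (median 0.01, over 0.1 in 2 of 45 pairs), and 9 of 18 samples were closest to their own number, so samples were taken to share only a number. With the replicate block, 9 members rose with stearate (12.4% of all genes rose and 5.72% fell), and 13 rose and 1 fell with oleate (21.6% and 2.6%). Between the fatty acids 5 differed (6.44% of all genes higher and 13.7% lower with stearate). In the CAY10566 arm 1 passed with stearate (1.77% rose and 2.29% fell). Depth is not known from TPM, so genes near 1 TPM such as COPZ2 are the least precise.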
